A study of Mus musculus with 16 samples.

Results

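Inflammatory, interferon and antigen presentation genes were followed in the midbrain's dorsal raphe nucleus (DRN), from which serotonin neurons project to the forebrain. The set was chosen by gene symbol from 36 names, of which 27 were listed among the 14504 genes of the deposited table. They were 4 of 6 NF-kB genes (Nfkbia, Nfkb1, Rela and Relb), 7 of 10 genes of cytokine and Toll-like receptors with their JAK kinases and STAT3, 10 of 13 interferon genes, all 4 MHC class I genes, and Cxcl12 and Cebpb of 3 chemokine and acute phase genes. Nfkb2, Tnfaip3, Il6ra, Socs3, Ifih1, Ddx58, Usp18, Lcn2 and Tlr4 were not analysed here. The rule used symbols and no threshold on a measured value, although earlier results of these data were known when the set was drawn up.

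Male C57BL/6 mice, 10 to 12 weeks old, were kept as controls or went through 30 days of social defeat, and defeated mice were split by their conduct toward an aggressor into a passive coping group (PS) and an active coping group (AS). Each of the 16 mice received saline or the synthetic glucocorticoid dexamethasone (DEX) at 2 mg/kg, and tissue was taken 6 h later. Poly(A) RNA was sequenced from 3 control, 2 PS and 3 AS mice given saline, and from 3 control, 3 PS and 2 AS mice given DEX. Libraries are named by the number in their label, which differs between groups. Saline-injected mice are the reference throughout, so every group carries an injection, and the bulk tissue holds all cell types of the dissected block.

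NF-kB is a family of transcription factors held inactive in the cytoplasm by inhibitors such as the protein of Nfkbia, and released by signals from tumor necrosis factor, interleukin 1 and Toll-like receptors. Interferons act through JAK kinases and STAT factors on genes that carry an interferon-stimulated response element (ISRE), among them the Ifit genes, and MHC class I molecules show peptides, carried into the endoplasmic reticulum by the Tap transporter, on the cell surface. Glucocorticoids bind a receptor that raises Nfkbia in many cell types and dampens inflammatory genes. Microglia and vascular cells are the usual sources of much of this expression in brain.

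The upstream sequences of 4 genes are shown because the DEX and stress comparisons turn on them: Nfkbia, Ifit3 and Tap1 differed between DEX and saline, and B2m had the smallest p in a stress comparison. Each is the 250 bases before the RefSeq start site in build GRCm38.p6, read 5′ to 3′ on the gene's strand, at chr12:55492648-55492897 (minus strand) for Nfkbia, chr19:34583279-34583528 (plus) for Ifit3, chr17:34187306-34187555 (plus) for Tap1 and chr2:122147437-122147686 (plus) for B2m. Capitals mark matches on either strand to an ISRE core (GAAANNGAA) or to the NF-kB consensus.

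Nfkbia: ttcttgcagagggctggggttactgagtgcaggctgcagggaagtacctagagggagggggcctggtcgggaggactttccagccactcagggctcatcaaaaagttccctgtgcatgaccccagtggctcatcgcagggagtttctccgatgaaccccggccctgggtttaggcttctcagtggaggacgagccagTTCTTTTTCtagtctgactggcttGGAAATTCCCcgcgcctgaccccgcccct

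Ifit3: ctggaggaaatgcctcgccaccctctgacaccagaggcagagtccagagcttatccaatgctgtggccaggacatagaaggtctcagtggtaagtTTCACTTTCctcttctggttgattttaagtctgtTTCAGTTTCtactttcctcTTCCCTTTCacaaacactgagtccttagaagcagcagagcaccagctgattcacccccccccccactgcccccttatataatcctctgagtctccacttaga

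Tap1: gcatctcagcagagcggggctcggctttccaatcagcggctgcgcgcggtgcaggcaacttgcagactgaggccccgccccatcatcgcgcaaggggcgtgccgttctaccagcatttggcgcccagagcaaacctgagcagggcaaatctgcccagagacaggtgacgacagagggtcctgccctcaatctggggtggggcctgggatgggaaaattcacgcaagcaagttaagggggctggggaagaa

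B2m: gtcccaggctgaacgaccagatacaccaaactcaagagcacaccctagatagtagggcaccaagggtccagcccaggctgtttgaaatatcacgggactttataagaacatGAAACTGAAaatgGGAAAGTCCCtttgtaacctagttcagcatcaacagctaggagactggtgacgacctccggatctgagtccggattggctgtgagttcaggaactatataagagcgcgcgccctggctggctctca

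The Nfkbia window held 1 ISRE core starting at base -53 and 1 NF-kB consensus match at -29. Ifit3 held 3 ISRE cores, all on the opposite strand, at -155, -121 and -102. B2m held an ISRE core at -139 beside an NF-kB match at -126, and the Tap1 window held neither. Over 300-base windows reaching 50 bases past the start, an ISRE core was found for 7 of the 25 set genes with a window (B2m, Bst2, Ifit1, Ifit3, Isg15, Nfkbia and Stat2) and for 9.76% of all 27025 genes. The NF-kB consensus was found for 8 of 25 (B2m, Bst2, H2-D1, H2-K1, Il1r1, Irf1, Nfkbia and Tlr2) and for 5.14% of all genes. The core of the glucocorticoid response element (ACANNNTGT, which reads the same on both strands) was found for 0 of 25 and for 7.90% of all genes, so no set gene that moved with DEX carried these letters in this window. Genes without a RefSeq window were Nfkb1 and Relb. A match describes letters only, not binding.

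Levels are given as normalized counts, the reads of a gene divided by a size factor of its library. Libraries held 38207157 to 62447298 reads in listed genes, and the lowest number of reads of any set gene in any library was 17 (Isg15). Per kilobase of exon, B2m was the most abundant at 3010 normalized counts, followed by H2-D1 at 1136 and Jak1 at 1049. Irf7 (40.4), Isg15 (41.4), Relb (42.9), Tlr2 (46.8) and Tap1 (49.1) had the lowest levels per kilobase. The spread of log2 values within groups was smallest for Jak2 (SD 0.06), Jak1 (0.08) and Stat3 (0.09) and largest for Bst2 (0.42), Cebpb (0.46) and Isg15 (0.48), so that a shift of the size seen for Tap1 was well outside the spread of Jak2 and inside that of Isg15.

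Library 40 of the saline AS group held the highest value of 6 of the 27 genes (a control saline library held 5), the highest Tph2 (182191 normalized counts, against 91764 to 161346 elsewhere) and the highest summed microglia markers, and results that rest on it are given with and without it. All 10 microglia markers tested were listed, none at 0, and their sum ranged from 9719 to 10537 in control saline, 9102 to 9446 in PS saline, 9493 to 14228 in AS saline, 8529 to 9917 in control DEX, 8251 to 9132 in PS DEX and 8652 to 9481 in AS DEX. Without library 40 the saline sums reached 10624. Cx3cr1, P2ry12 and Aif1 fell with DEX (log2 fold change -0.83, -0.59 and -0.92; adjusted p = 9.72e-05, 0.022 and 0.040, limma), while Tmem119, C1qa and C1qb stood at -0.03, -0.03 and 0.03. Markers of other cells that fell were Vtn of mural cells (-0.63, adjusted p = 0.022, limma) and Tek of endothelial cells (-0.46, adjusted p = 0.085, limma). Cnp and Mog of oligodendrocytes fell too (-0.37 and -0.43, adjusted p = 0.014 and 0.082, limma), as did Htr1a of serotonin neurons (-0.25, adjusted p = 0.068, limma). No other mural, endothelial, oligodendrocyte or serotonin neuron marker was called. Median log2 fold changes over the markers of these cells were -0.45, -0.08, -0.16 and -0.12, in that order. In control mice alone the medians were -0.05, 0.14, -0.23 and 0.06. Summed mural cell markers (7 of 7 listed) spanned 5770 to 9541 with saline and 4797 to 7827 with DEX, and endothelial markers (10 of 10) 7350 to 11922 and 8294 to 10783. None of 6 markers each of perivascular macrophages, neutrophils and T or NK cells was in the table. In bulk tissue, fewer cells of a type and less RNA per cell cannot be told apart, and the part of these cell types in the results that follow was not tested. Serotonin neuron markers were present (8 of 8), and DEX reached the tissue by the level of Fkbp5, a chaperone gene induced by the glucocorticoid receptor, at 1241 to 1536 normalized counts in saline libraries and 5578 to 6958 in DEX libraries.

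The first question was whether acute DEX changed these genes. Averaged over control, PS and AS mice, DEX raised Nfkbia and lowered Ifit3 and Tap1, and the other 24 genes did not pass the threshold (adjusted p under 0.1 over all 14504 genes, limma on log2 of normalized count plus 1). Of the 27 genes, 3 (11.1%) were thus called, against 4.31% of all genes. By direction, 1 of 27 was higher against 2.78% of all genes, and 2 of 27 were lower against 1.53%. The median log2 fold change of the 27 genes was 0.00, as was that over all genes (-0.00), with 14 genes above and 13 below 0. At an unadjusted p under 0.05 stood 11 of 27 genes (40.7%), against 14% of all genes. DESeq2 on the recovered whole reads called 5 of 27 (6.23% of all genes) and edgeR 3 (4.29%).

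**Figure D1:**
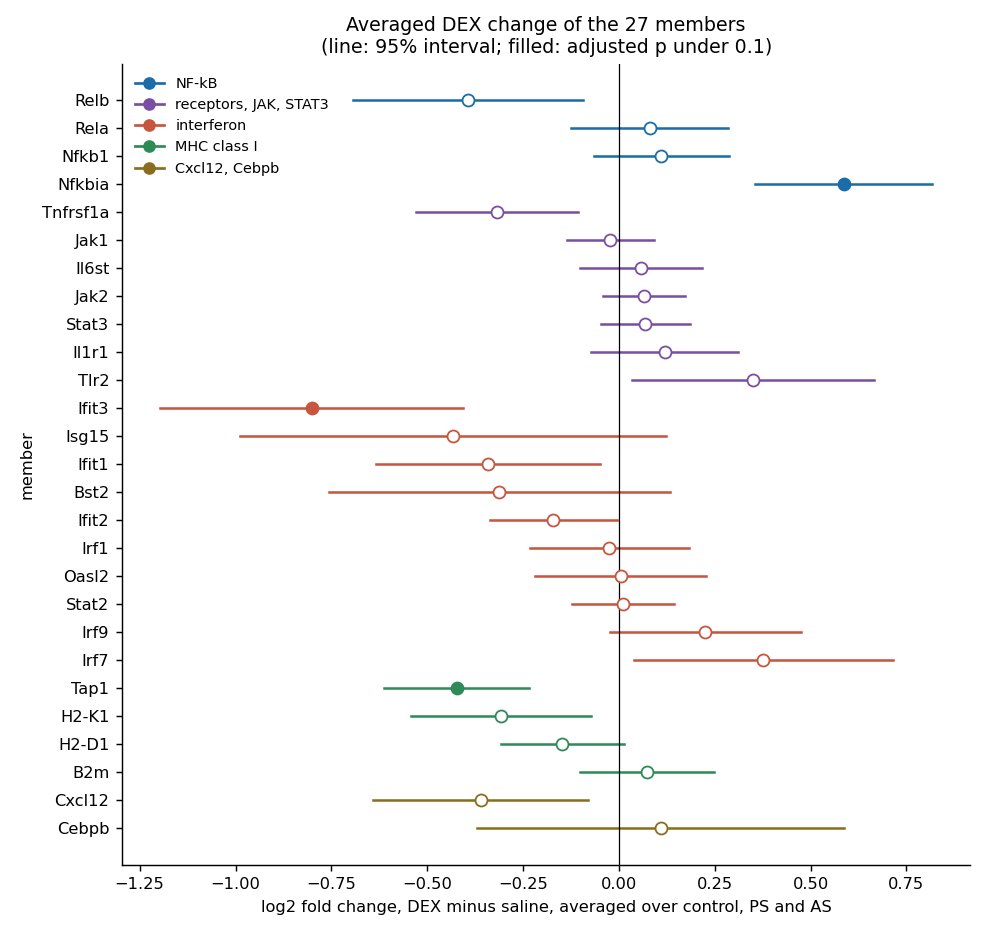
Log2 fold change of each of the 27 genes between DEX and saline, averaged over control, PS and AS (x axis), with genes grouped by class on the y axis. Points are limma estimates, lines their 95% intervals, and filled points passed adjusted p under 0.1: Nfkbia at 0.59, Ifit3 at -0.80 and Tap1 at -0.42.

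Among NF-kB genes, Nfkbia, which encodes the inhibitor IkB alpha (chr12:55489410-55492647), was the gene that rose. Control mice given saline had 619, 780 and 865 normalized counts and control mice given DEX had 1138, 1188 and 1381. PS mice had 741 and 754 with saline and 1010, 1290 and 1309 with DEX. AS mice had 789, 886 and 1195 with saline and 1090 and 1345 with DEX. All 8 DEX libraries were at 1010 or more and 7 of the 8 saline libraries at 886 or less, and library 40 was the exception at 1195. The averaged log2 fold change was 0.59 ± 0.11 (SE), a 1.5-fold rise with adjusted p = 0.0058 (limma). Without library 40 it was 0.64, with adjusted p = 0.0014.

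The other NF-kB genes did not pass. Relb, a subunit of the noncanonical pathway, lay at 130 to 240 normalized counts with saline and at most 174 with DEX, with a log2 fold change of -0.39 ± 0.14 that did not pass (adjusted p = 0.20, limma). Rela, the transactivating subunit of the classical dimer, stood at 0.08 ± 0.10, and Nfkb1, the gene of its p50 partner, at 0.11 ± 0.08. Nfkb1 was the NF-kB gene with the smallest p in a stress comparison, and its libraries are given with those results. Of 19 other listed NF-kB pathway genes (of 27 named), 0 were called with DEX by limma, 4 had an unadjusted p under 0.05, and their median log2 fold change was 0.07.

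**Figure D2:**
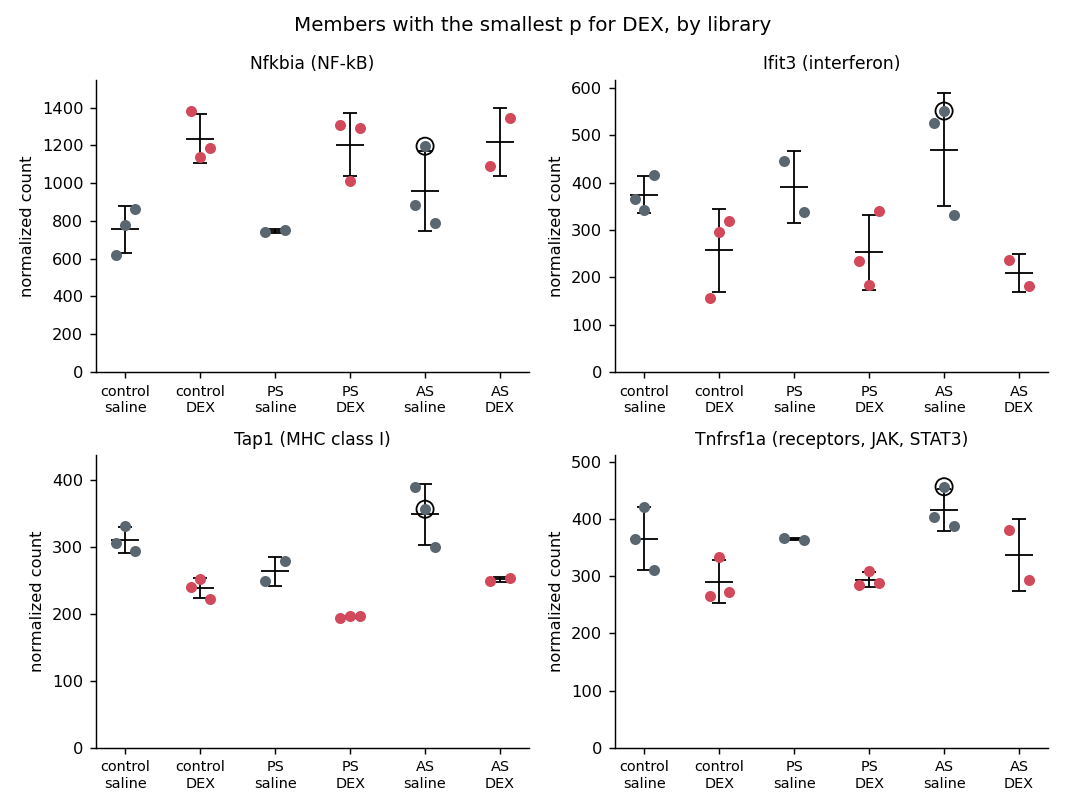
Normalized counts (y axis, from 0) of Nfkbia, Ifit3, Tap1 and Tnfrsf1a in each library by group (x axis), gray for saline and red for DEX. Horizontal bars and error bars are group means and SD, and the circled point is library 40, whose Nfkbia value of 1195 lies among the DEX libraries.

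Limma called 0 of the 7 receptor and kinase genes, of which 2 had an unadjusted p under 0.05. Tnfrsf1a, the main receptor of tumor necrosis factor, had the smallest p of this class. Its normalized counts were 311, 366 and 421 in control saline and 265, 272 and 334 in control DEX, 364 and 367 in PS saline and 284, 288 and 309 in PS DEX, and 388, 403 and 457 in AS saline and 293 and 382 in AS DEX. The arms overlapped in control mice and not in PS or AS mice. The log2 fold change was -0.32 ± 0.10 and missed the threshold (adjusted p = 0.13, limma), although DESeq2 called it at adjusted p = 0.053. The estimate was nearly the same in control, PS and AS mice (-0.33, -0.32 and -0.31), and the 95% intervals of the differences between them ran from -0.53 to 0.54 at the widest.

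Tlr2, a receptor for bacterial lipoproteins, spanned 99.0 to 154 normalized counts with saline and 110 to 201 with DEX, a log2 fold change of 0.35 ± 0.15 that did not pass (adjusted p = 0.30, limma). Il1r1, the interleukin 1 receptor, stood at 0.12 ± 0.09, from 0.034 to 0.20 on leaving out 1 library. Il6st, which encodes the gp130 subunit shared by interleukin 6 family receptors, stood at 0.06 ± 0.07. Jak1 and Jak2, kinases of cytokine receptors, stood at -0.02 ± 0.05 and 0.07 ± 0.05, and Stat3, the transcription factor downstream of gp130, at 0.07 ± 0.05. For these 5 genes the 95% intervals lay within -0.14 and 0.31, so that a change of the size of Nfkbia was outside them. Of 27 other listed genes of cytokine receptors and JAK-STAT signaling (of 40 named), 3 rose: Ptpn11 (0.55), a phosphatase, Lifr (0.68), a receptor that pairs with gp130, and Pias1 (0.24), a SUMO ligase (adjusted p = 2.75e-04, 0.0041 and 0.050, limma).

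Interferon genes had estimates on both sides of 0. Ifit3, an interferon-induced antiviral gene (chr19:34583531-34588731), fell. Its normalized counts were 341, 366 and 417 in control saline and 157, 295 and 319 in control DEX. PS mice had 337 and 445 with saline and 184, 235 and 339 with DEX, and AS mice had 332, 525 and 551 with saline and 181 and 237 with DEX. The arms did not overlap in control and AS mice, and in PS mice 1 DEX library (339) reached just above 1 saline library (337). The averaged log2 fold change was -0.80 ± 0.18, to 0.574 of the saline level (adjusted p = 0.027, limma). Without library 40 it was -0.76 (adjusted p = 0.048), and it lost the call without saline PS library 62 (adjusted p = 0.102) or DEX AS library 42 (0.12).

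Ifit3 lies next to a near-identical copy, Ifit3b, and 31.7% of the 100-base stretches of its transcript are also in Ifit3b, so the reads of the pair may have been split or dropped in counting. Ifit3b itself fell by 0.56 on the log2 scale (adjusted p = 0.028, limma), from 246 to 397 normalized counts with saline to 156 to 256 with DEX. The other Ifit genes were lower in the same comparison without passing: Ifit1 at -0.34 ± 0.14 (141 to 257 normalized counts with saline, 97.4 to 173 with DEX; adjusted p = 0.28) and Ifit2 at -0.17 ± 0.08 (561 to 730 and 468 to 650; adjusted p = 0.34, limma). ISRE cores like those upstream of Ifit3 shown above were also found upstream of Ifit1 (3 matches). None was in the windows given for Ifit2 (chr19:34550444-34550743 and chr19:34550838-34551137). Both lie at the 5′ end of a gene annotated from 34550694 to 34576419, and bases further along it were not searched.

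Isg15, a ubiquitin-like modifier, and Bst2, a membrane tether of viruses, stood at -0.43 ± 0.26 and -0.31 ± 0.21, both within their spread. Irf7, the factor that amplifies type I interferon, stood at 0.38 ± 0.16 (82.2 to 195 normalized counts with saline, 128 to 206 with DEX; adjusted p = 0.30, limma), and Irf9, the DNA-binding subunit of the ISRE factor, at 0.23 ± 0.12. Stat2 (0.01 ± 0.06), Irf1 (-0.02 ± 0.10) and Oasl2 (0.00 ± 0.10) stood at about 0, where the sign depended on the libraries kept. Over the 10 interferon genes 1 was called, 4 were above and 6 below 0, with a median of -0.10 against -0.00 for all genes. Of 26 other listed interferon-stimulated genes (of 53 named), 2 fell, the guanylate-binding protein gene Gbp3 (-0.78; adjusted p = 0.013) and Ifit3b, and 19 of 26 were below 0 with a median of -0.09.

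Among MHC class I genes the fall was in Tap1, which encodes a subunit of the peptide transporter (chr17:34187553-34197225). Control mice had 293, 306 and 331 normalized counts with saline and 222, 239 and 252 with DEX. PS mice had 248 and 279 with saline and 194, 197 and 197 with DEX, and AS mice had 299, 356 and 390 with saline and 249 and 254 with DEX. The arms did not overlap in control, PS or AS mice. Across all 16 libraries they did, through saline PS library 62 at 248. The averaged log2 fold change was -0.42 ± 0.09, to 0.746 of the saline level (adjusted p = 0.014, limma), and -0.42 without library 40 (adjusted p = 0.024). The change was of like size in control, PS and AS mice (-0.38, -0.43 and -0.46), and the intervals of the differences between them ran from -0.53 to 0.44 at the widest. Tap1 overlaps the first bases of Psmb9 on the other strand, and whether counting used the strand is not stated.

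H2-K1, a heavy chain gene, was lower without passing (-0.31 ± 0.11; 1084 to 1569 normalized counts with saline, 874 to 1236 with DEX; adjusted p = 0.20, limma). H2-D1, the other classical heavy chain gene listed, stood at -0.15 ± 0.07 (adjusted p = 0.40). B2m, the light chain common to all class I molecules, stood at 0.07 ± 0.08, and its arms lay in opposite order in PS and AS mice. Of the transcript stretches of H2-K1 and H2-D1, 0.957% and 3.59% are shared with other H2 genes. Of 17 other listed genes of the class I pathway (of 22 named), 1 fell, the Fc receptor gene Fcgrt (-0.48; adjusted p = 0.034, limma). In all, 16 of the 17 were below 0, with a median of -0.17 against -0.00 for all genes. The 2 listed MHC class II genes (of 7 named) were both below 0 (median -0.40) and neither was called. Beside Ifit3 and Tap1, the mean microglia marker sum was 10368 in saline and 8900 in DEX libraries, and that of mural markers 7350 and 6086. Library 40 held the highest saline sum of both (14228 and 9541), and without it the highest were 10624 and 8022. Means were also lower with DEX for oligodendrocyte (8 of 8 listed, 173069 and 161600), endothelial (10290.2 and 9892) and serotonin neuron markers (388213 and 370836). Those of red blood cell and meningeal fibroblast markers were lower too. Means were higher with DEX for astrocyte (8 of 8, 81732 and 84992.5), ependymal (7 of 7, 4858 and 5087) and choroid plexus markers (4 of 6, 1290 and 1774). Ependymal sums spanned 2284 to 8783 with saline and 658 to 12418 with DEX, and their median log2 fold change was below 0 (-0.25). Astrocyte sums spanned 56928 to 91943 with saline and 80353 to 90185 with DEX, with a median of 0.005. The choroid plexus median was 0.40.

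Cxcl12, a chemokine made by vascular cells and meninges, had 1383, 1428 and 2161 normalized counts in control saline and 1330, 1340 and 1675 in control DEX. PS mice had 1457 and 1964 with saline and 1149, 1283 and 1376 with DEX, and AS mice had 1295, 1924 and 2022 with saline and 1034 and 1435 with DEX. The arms overlapped in control and AS mice, and the averaged change of -0.36 ± 0.13 did not pass (adjusted p = 0.22, limma). DESeq2 called it at adjusted p = 0.098 and library weights at 0.014. Without library 40, the lowest saline value, it passed at -0.43 (adjusted p = 0.080). Cebpb, a factor of the acute phase response, had wide arms (83.3 to 167 normalized counts with saline, 69.5 to 159 with DEX) and stood at 0.11 ± 0.22, from 0.017 to 0.23 on leaving out 1 library.

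As a point of comparison for the size of these changes, 7 of 9 listed genes (of 14 named) known to be induced by glucocorticoids rose, with a median log2 fold change of 0.79 and a range of 0.09 to 2.17. Nfkbia, at 0.59, lay inside this range.

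The second question was whether the response differed between control, PS and AS mice. In control mice 1 of 27 genes was called (3.70%, against 1.26% of all genes), Nfkbia at 0.72 ± 0.17 (adjusted p = 0.082, limma), and that call was lost when any of 12 of the 16 libraries was left out, with adjusted p from 0.034 to 0.32. In PS mice limma called 0 of 27 (0.703% of all genes) and in AS mice 0 of 27 (0.689%), where 4 and 6 genes had an unadjusted p under 0.05 (4.69% and 9.36% of all genes). EdgeR also called 0 in both. DESeq2 called 1 in PS mice (Nfkbia, against 1.34% of all genes) and 3 in AS mice (Ifit2, Ifit3 and Stat3, against 1.93%). Giving each library a weight by its fit called 3 in PS mice (3.65% of all genes), 9 in AS mice (9.67%) and 7 in the average (9.16%). Genes whose arms, of 2 or 3 libraries each, did not overlap were 9 of 27 in control mice (15.9% of all genes), 11 in PS mice (21.3%) and 10 in AS mice (29.8%). Over all 8 DEX and 8 saline libraries 0 of the 27 genes were free of overlap, against 1.88% of all genes.

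**Figure D3:**
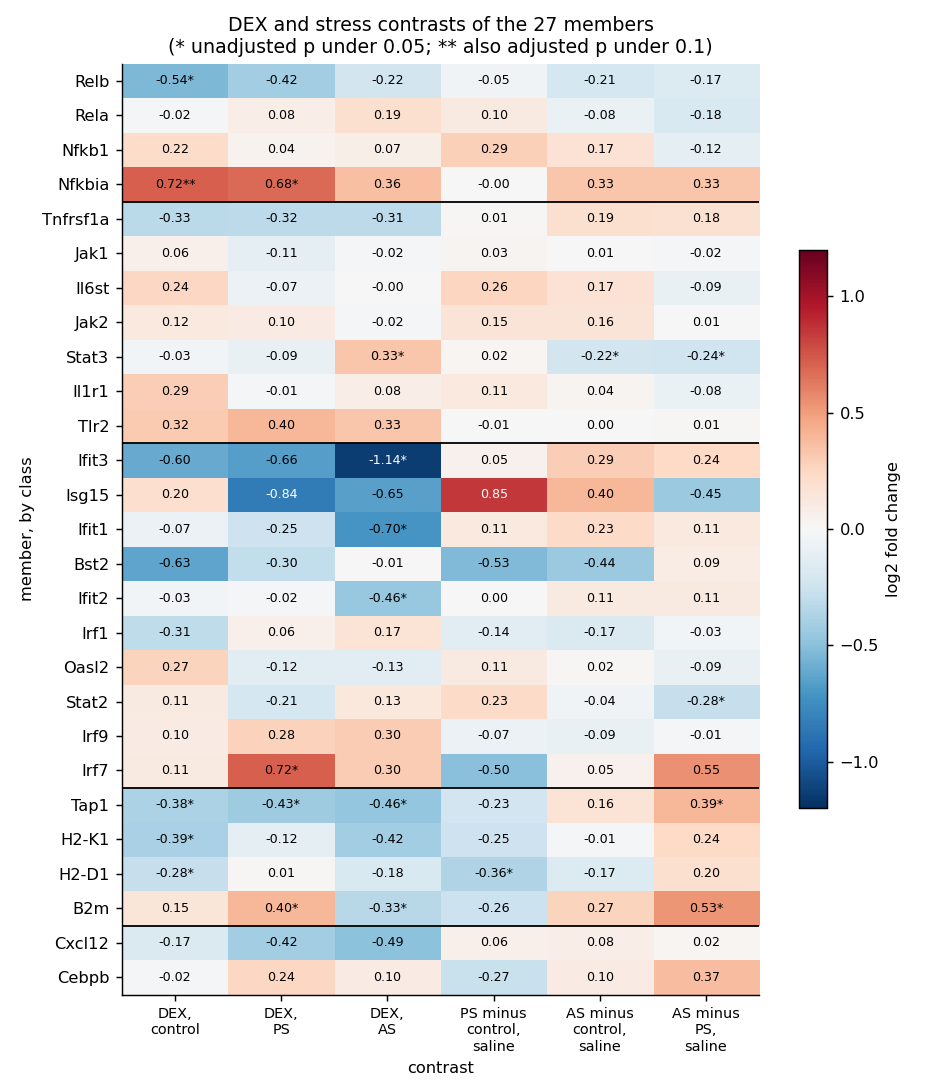
Log2 fold changes (color and number) of the 27 genes, rows grouped by class, for DEX against saline in control, PS and AS mice and for the 3 stress comparisons in saline. One star marks an unadjusted p under 0.05 and 2 stars also an adjusted p under 0.1, which Nfkbia in control mice (0.72) alone has. Tap1 is negative in all 3 DEX columns, while B2m changes sign between PS (0.40) and AS (-0.33).

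The Ifit genes had their most negative DEX estimates in AS mice. There Ifit3, Ifit1 and Ifit2 stood at -1.14 ± 0.33, -0.70 ± 0.24 and -0.46 ± 0.14, and in control mice at -0.60, -0.07 and -0.03. None of these passed within AS mice (adjusted p = 0.23, 0.38 and 0.27, limma), and a larger change in AS mice was not shown: 0 of 27 genes passed in each of the 3 interactions (PS with control, AS with control, AS with PS), with 0%, 0% and 0% of all genes called. EdgeR and DESeq2 called 0 as well. At an unadjusted p under 0.05 stood 0, 3 and 3 of the 27 genes, against 2.1%, 4.02% and 2.9% of all genes. For Ifit3 the difference between AS and control was -0.54, with a 95% interval from -1.49 to 0.41.

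The smallest interaction p belonged to B2m and Stat3. B2m had 2155 and 1938 normalized counts in PS saline and 3080, 2378 and 2682 in PS DEX, and 3114, 3451 and 2388 in AS saline and 2368 and 2328 in AS DEX. DEX libraries were thus all higher in PS mice and all lower in AS mice. In control mice the values were 2575, 2333 and 2450 with saline and 2770, 2915 and 2487 with DEX. The DEX change differed between AS and PS mice by -0.73 ± 0.21 (unadjusted p = 0.0032, adjusted p = 0.87, limma) and by -0.62 without library 40, and did not pass. Stat3 differed by 0.42 ± 0.14 (unadjusted p = 0.0078, adjusted p = 0.87, limma), and did not pass either. Its normalized counts were 2477, 2801 and 2992 in AS saline and 3414 and 3507 in AS DEX, and 3159 and 3328 in PS saline and 2998, 3048 and 3095 in PS DEX. The AS arms thus lay in one order and the PS arms in the other, both without overlap.

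The third question was whether social defeat alone moved these genes. In saline libraries 0 of 27 were called between PS and control, between AS and control, or between AS and PS, where 0%, 0% and 0% of all genes were called. At an unadjusted p under 0.05 stood 1 gene between PS and control mice (7.67% of all genes), 1 between AS and control mice (2.39%) and 4 between AS and PS mice (3.41%). With DEX the 3 comparisons called 0 of 27 (0%, 0.00689% and 0% of all genes), and so did the averages over saline and DEX (0%, 0.0138% and 0%). EdgeR and DESeq2 called 0 of 27 in all 9 of these stress comparisons. PS and AS are set against the same control libraries, and AS against PS reuses both.

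MHC class I genes had the smallest p of the stress comparisons. In saline all 4 were lower in PS than in control mice without overlap: B2m (1938 and 2155 against 2333 to 2575), H2-K1 (1089 and 1257 against 1294 to 1467), H2-D1 (2342 and 3036 against 3163 to 3576) and Tap1 (248 and 279 against 293 to 331). This is 4 of the 11 of 27 genes without overlap there, against 28.5% of all genes. The log2 fold changes ran from -0.36 to -0.23, the lowest adjusted p was 0.57 (limma), and only H2-D1 had an unadjusted p under 0.05 (0.017). Of the 17 other class I pathway genes 16 were also below 0 (median -0.23, against 0.01 for all genes). Summed microglia markers were 9102 and 9446 in these PS libraries and 9719 to 10537 in control, and red blood cell markers (4 of 5 listed) 645 and 684 against 989 to 2034, both without overlap. With DEX the PS and control values lay closer for B2m (-0.01), H2-K1 (0.02) and H2-D1 (-0.07), while Tap1 stood at -0.28.

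Group means of the same 4 genes were higher in AS than in PS mice in saline, but only B2m and Tap1 were free of overlap. B2m stood at 0.53 ± 0.15 (unadjusted p = 0.0027, adjusted p = 0.73, limma) and at 0.42 without library 40. Its AS values of 3114, 3451 and 2388 were all above the PS values of 1938 and 2155. H2-K1 (1084 to 1569 in AS against 1089 and 1257 in PS) and H2-D1 (2727 to 3404 against 2342 and 3036) overlapped. Microglia marker sums were also higher in AS than in PS saline libraries (9493 to 14228 against 9102 and 9446). They did not overlap, but the lowest AS sum (9493) was just above the highest PS sum (9446). Without library 40 the AS sums reached 10624. Marker sums of mural cells (7525 to 9541 against 5770 and 8022) and astrocytes (85373 to 91943 against 78210 and 87060) overlapped. Median log2 fold changes over the mural and astrocyte markers were 0.25 and 0.29. Tap1 was higher in AS than in PS mice in saline (0.39 ± 0.16; 299 to 390 against 248 and 279) and, in separate libraries, with DEX (0.36 ± 0.16; 249 and 254 against 194 to 197). The average over both was 0.38 ± 0.11, with unadjusted p = 0.0045 and adjusted p = 0.98 (limma), so that it did not pass either. Genes without overlap between AS and PS in saline were 7 of 27, against 23.6% of all genes, and between AS and control 1 of 27 (Jak2), against 4.49%.

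**Figure D4:**
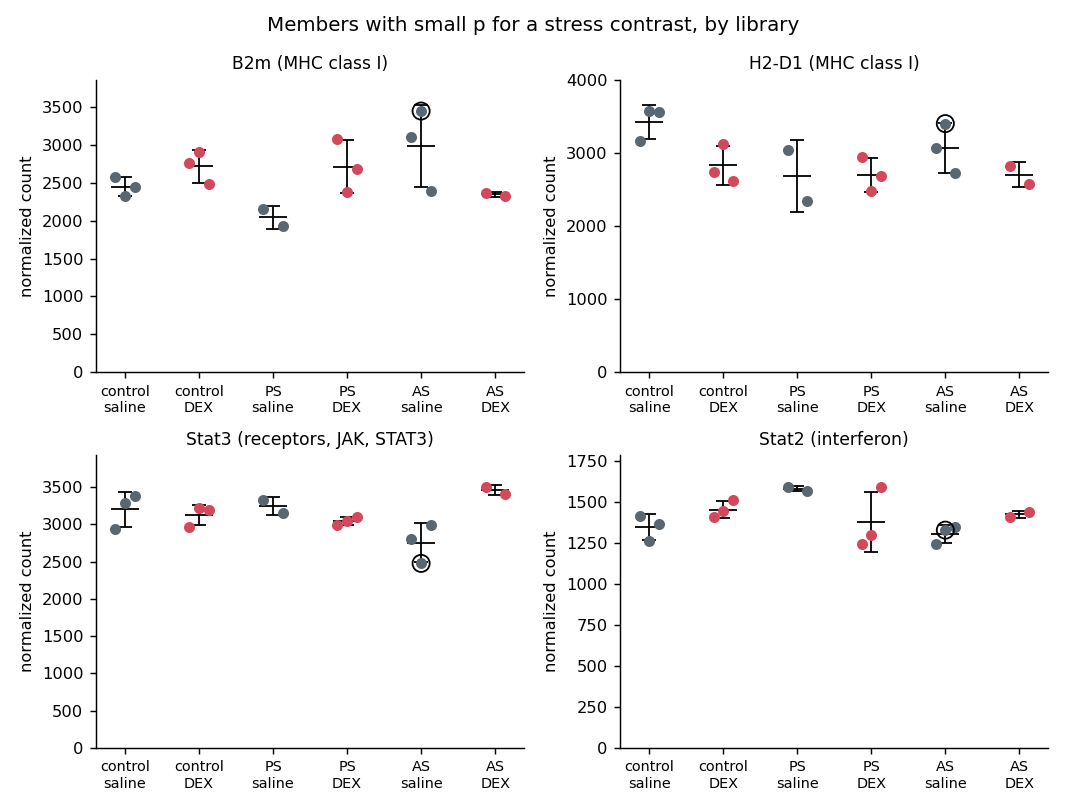
Normalized counts (y axis, from 0) of B2m, H2-D1, Stat3 and Stat2 in each library by group (x axis), gray for saline and red for DEX, with group means and SD. The circled point is library 40, the highest for B2m at 3451 and the lowest for Stat3 at 2477.

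Stat3 and Stat2 each had the smallest p of their class in a stress comparison. Stat3 was at 2801, 2477 and 2992 normalized counts in AS saline against 2940, 3295 and 3384 in control saline, overlapping by 1 library pair, with a difference of -0.22 ± 0.09 (unadjusted p = 0.023, adjusted p = 0.998, limma) that went to -0.14 without library 40. Stat2, the partner of Irf9 in the ISRE factor, had 1243, 1330 and 1348 in AS saline, 1571 and 1595 in PS saline and 1261, 1367 and 1419 in control saline. The PS libraries lay above those of both AS and control without overlap, while AS and control overlapped. Between AS and PS the difference was -0.28 ± 0.11 (unadjusted p = 0.026, adjusted p = 0.73, limma). With DEX the same comparison of Stat2 stood at 0.06.

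Nfkb1 had 856, 1059 and 1131 normalized counts in control saline and 1228 and 1239 in PS saline, and 983, 1247 and 1327 in control DEX and 1173, 1268 and 1384 in PS DEX. Only the saline arms were free of overlap, and the average of 0.20 ± 0.10 did not pass (unadjusted p = 0.060, adjusted p = 0.56, limma). For Nfkbia the difference between PS and control in saline was -0.00 ± 0.19, with a 95% interval from -0.41 to 0.41. Cebpb stood at 0.29 ± 0.28 between AS and PS averaged over treatments (adjusted p = 0.98), with 84.3 to 158 normalized counts in AS saline and 83.3 and 111 in PS saline, and leaving out 1 library moved it between 0.12 and 0.43.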

How the data were processed

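The authors deposited a signal for 14504 genes in 16 DRN libraries, namely the gene's count over the size factor of its library. Per the submitters' notes and methods, the authors trimmed with fastp 0.20.1, aligned to mm10 (GRCm38) with HISAT2 2.2.1, counted with featureCounts (Subread 2.0) and used DESeq2 1.36.0; strand-specific counting is not stated. The deposited comparison tables hold the authors' fold changes and p-values and were not used. Multiplying by the size factor gave whole reads (100% of values within 0.001), 38207157 to 62447298 per library. Although a filter of 10 reads is stated, 973 genes fell below 10 in some library, so all were tested, and no set gene did.

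Groups came from the labels. Limma 3.58.1 (R 4.3.3) was fitted to log2(normalized count + 1) with 6 group means, trend and Benjamini-Hochberg adjustment over all 14504 genes, threshold 0.1, for 16 contrasts; intervals are 95%. The fold change understates that of low genes. Replicates are separate mice. In the main fit, p-values set a difference of group means against a gene's spread between mice within groups, estimated over all 6 groups together. The fit was tested on simulated data. Alternatives were pseudocounts of 0.1 and 10, a mean of at least 100, TMM scaling, edgeR 4.0.16 and DESeq2 1.42.0 on recovered reads, library weights, only the groups compared, and leaving out each library. Lengths, gene positions and overlaps came from GENCODE vM21 (GRCm38), and shared stretches from its transcripts. The study left out DRN samples with low Tph2 from DEX PS and DEX AS mice. Its methods still describe more DRN libraries than the 16 available here, and the reason for that difference is not stated. Library values are given for called genes and, per class, for the gene with the smallest p for averaged DEX and for stress; MHC class I genes beyond B2m and Tap1 were added for the PS comparison after their values were seen. The set and all lists were chosen with earlier results of these data known.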

Additional observations from a re-analysis of the deposited data

Results flagged for a closer look

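In B2m the DEX arms did not overlap and lay in opposite order in the defeated groups: the log2 fold change was 0.40 in PS mice and -0.33 in AS mice (-0.22 without library 40). Stat3 did so with the signs exchanged, at -0.090 in PS mice and 0.33 in AS mice. The differences were tested as interactions, -0.73 for B2m and 0.42 for Stat3, and neither passed (adjusted p = 0.87 for both, limma, with 0% of all genes called). Leaving out any 1 library kept B2m between -0.88 and -0.62 and Stat3 between 0.35 and 0.48. No group held 4 libraries, so no test for a single outlying library was run, and the high values of library 40 are a description.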

How the results depend on the processing

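Nfkbia and Tap1 kept their averaged DEX calls under all 16 sets of 15 libraries and the 7 other settings run for them, with adjusted p of at most 0.037 and 0.070. Ifit3 kept its call in 14 of 16 sets and all 7 settings. With DESeq2 the genes called were 5 for averaged DEX, 1 in PS and 3 in AS, and with library weights 7, 3 and 9; fitting only the groups compared left 0 in control. The weights were estimated by an iteration that stopped before it converged. Leaving out 1 library gave 0 to 1 genes in control and 2 to 4 averaged, and 0 for the other 14 contrasts. Genes near 0 for averaged DEX changed sign: Il6st to -0.0013 and Stat2 to -0.00945 with weights, Oasl2 to -0.0020 with DESeq2, and on leaving out a library Irf1 ranged from -0.064 to 0.011, Stat2 from -0.026 to 0.033 and Oasl2 from -0.045 to 0.073. The causes were not tested. Counts under the other settings stayed within 1.5 times. No paired analysis was possible because the animal numbers in the labels differ between groups. With 2 or 3 mice per group, contrasts within a phenotype had wide intervals.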
